A study of Mus musculus with 7 samples.

Results

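The Hox cluster genes are the 39 protein-coding mouse genes whose symbols are Hoxa, Hoxb, Hoxc or Hoxd followed by a number, out of 21627 protein-coding genes on the GRCm38 autosomes and X chromosome. Their chromatin was read from lists of accessible regions (peaks) made by ATAC-seq, an assay that reads where the transposase Tn5 can cut the DNA and add adapters to it. A region was assigned to a Hox gene where its summit lay nearest to that gene's span among all protein-coding genes and within 50 kb of it. By this rule 180 of 140286 regions were Hox regions in untreated epithelium, 248 of 164684 at day 1, 226 of 145337 at day 7 and 157 of 130149 at day 28. When overlapping regions were merged over the 4 lists, 269 of 223972 merged regions were Hox regions.

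Epithelial cells were purified from the pancreas of C57BL/6J wild-type mice that were untreated, or 1, 7 or 28 days after caerulein, a cholecystokinin analogue that causes acute pancreatitis. Each group had 1 library and 1 peak list, the sources used here do not give the number of mice behind each or their age, and the 3 libraries of DCLK1-positive cells from Dclk1-DTR-ZsGreen mice were not analysed here. There was therefore no replicate check of any difference and no test: intervals are exact (Clopper-Pearson) 95% binomial intervals that cover counting error only, and a share of 0 is given with the limit that 3 regions of the total would make. The lists hold no read counts, so sequencing depth is unknown.

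Hox genes encode homeodomain transcription factors that give cells along the head-to-tail axis, and in limbs, gut and mesenchyme, their positional identity. They lie in 4 clusters whose gene order follows the axial order of expression, from the anterior group 1 genes to the posterior group 13 genes, and genes with the same number in different clusters are paralogues. Hox proteins bind DNA with cofactors of the TALE class (Pbx, Meis and Pknox), retinoic acid receptors and Cdx factors are known activators of the clusters, and Polycomb complexes keep unused Hox genes closed.

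The Hoxa cluster holds 11 genes at chr6:52155367-52260880, Hoxb 10 genes at chr11:96194316-96368254, Hoxc 9 genes at chr15:102921131-103036856 and Hoxd 9 genes at chr2:74668225-74765142 (GRCm38). Their spans were 106, 174, 116 and 96.9 kb, and the stretch in which a summit could be assigned to them was 182 kb for Hoxa, 236 kb for Hoxb, 216 kb for Hoxc and 131 kb for Hoxd. The Hoxd stretch was short because Evx2, an even-skipped type homeobox gene, lies 6.70 kb from Hoxd13. The Hoxb stretch ended at the midpoints to Ttll6, a tubulin-modifying enzyme gene 28.1 kb from Hoxb13, and to Skap1, a gene for a signalling adaptor protein 96.3 kb from Hoxb1. The farthest regions inside the 50 kb limit lay 49058, 49138, 49651 and 49375 bp from Hoxc4 in the untreated, day 1, day 7 and day 28 lists, and the nearest ones outside it lay 50599, 50606, 50640 and 50510 bp from Hoxc4.

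The start sites of 5 Hox genes are shown because they differed in which lists covered them. RefSeq windows (GRCm38.p6) of 250 bases before to 50 after a start were available for 22 of the 39 genes, in 24 windows. The windows are written 5′ to 3′ on the gene's strand, with each CG dinucleotide in capitals: Hoxa5 at chr6:52204538-52204837 (minus strand), Hoxb4 at chr11:96318017-96318316 (plus), Hoxd11 at chr2:74682073-74682372 (plus), Hoxa11 at chr6:52245761-52246060 (minus) and Hoxb1 at chr11:96365508-96365807 (plus).
Hoxa5 start window: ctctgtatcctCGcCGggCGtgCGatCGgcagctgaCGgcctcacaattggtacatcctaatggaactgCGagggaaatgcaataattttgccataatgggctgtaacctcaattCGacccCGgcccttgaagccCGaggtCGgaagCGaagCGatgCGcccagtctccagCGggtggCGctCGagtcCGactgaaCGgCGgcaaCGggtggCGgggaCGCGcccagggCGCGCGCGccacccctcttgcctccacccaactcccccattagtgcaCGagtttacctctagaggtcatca
Hoxb4 start window: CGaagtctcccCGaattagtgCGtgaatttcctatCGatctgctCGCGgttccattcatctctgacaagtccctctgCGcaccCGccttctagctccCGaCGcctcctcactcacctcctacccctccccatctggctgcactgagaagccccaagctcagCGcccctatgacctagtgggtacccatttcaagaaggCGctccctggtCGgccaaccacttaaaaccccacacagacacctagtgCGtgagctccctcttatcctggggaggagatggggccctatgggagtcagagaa
Hoxd11 start window: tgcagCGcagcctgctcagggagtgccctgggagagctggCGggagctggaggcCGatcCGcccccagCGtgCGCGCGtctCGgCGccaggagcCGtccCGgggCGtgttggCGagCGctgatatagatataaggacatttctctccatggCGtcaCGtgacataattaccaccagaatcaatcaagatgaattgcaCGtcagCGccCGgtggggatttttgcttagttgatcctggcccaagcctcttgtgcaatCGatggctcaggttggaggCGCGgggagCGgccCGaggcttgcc
Hoxa11 start window: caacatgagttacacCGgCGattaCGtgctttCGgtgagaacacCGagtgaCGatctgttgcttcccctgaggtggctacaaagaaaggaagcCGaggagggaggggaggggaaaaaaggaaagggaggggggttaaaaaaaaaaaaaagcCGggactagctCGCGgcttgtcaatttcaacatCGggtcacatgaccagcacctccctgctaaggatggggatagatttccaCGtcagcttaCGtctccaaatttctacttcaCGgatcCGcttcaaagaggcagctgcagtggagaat
Hoxb1 start window: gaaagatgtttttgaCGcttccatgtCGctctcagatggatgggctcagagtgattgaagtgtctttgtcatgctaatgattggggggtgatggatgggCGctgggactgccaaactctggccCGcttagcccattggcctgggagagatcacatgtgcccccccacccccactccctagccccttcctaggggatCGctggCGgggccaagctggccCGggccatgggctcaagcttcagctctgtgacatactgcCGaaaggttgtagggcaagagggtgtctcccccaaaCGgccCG

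A peak covered the Hoxa5 window in all 4 lists, and this window holds 29 CG dinucleotides. The Hoxb4 window, with 14, was covered at days 1, 7 and 28 and not in untreated epithelium. The Hoxd11 window, with 25, was covered in untreated epithelium and at days 1 and 7 but not at day 28. The Hoxa11 window, with 15, was covered in untreated epithelium and in no later list, and the Hoxb1 window, with 10, in no list. Over the 24 Hox windows the number of CG dinucleotides had a median of 14.5 (range 4 to 45), against a median of 7 (range 0 to 67) over all 32619 windows of the table.

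The clusters also carry microRNAs, which are shown because members with the same seed (bases 2 to 8, in capitals) lie in different clusters and stood beside different peaks. The mature sequences are from RefSeq (GRCm38.p6). miR-10a lies at chr11:96317186-96317208 (plus strand) beside Hoxb4 and miR-10b at chr2:74726074-74726096 (plus) within Hoxd4. miR-196b lies at chr6:52230129-52230150 (minus) between Hoxa9 and Hoxa10, and miR-196a has copies at chr11:96265187-96265208 (plus) near Hoxb9 and at chr15:102973365-102973386 (plus) between Hoxc9 and Hoxc10. miR-615 lies at chr15:103014969-103014990 (plus) within Hoxc5.
miR-10a-5p: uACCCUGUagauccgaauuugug
miR-10b-5p: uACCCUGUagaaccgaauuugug
miR-196a-5p: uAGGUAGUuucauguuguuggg
miR-196b-5p: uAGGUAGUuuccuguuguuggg
miR-615-3p: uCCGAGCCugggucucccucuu

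The 2 miR-10 members share the seed ACCCUGU, and miR-196a and miR-196b share AGGUAGU. The nearest peak to miR-10a-5p was 1325 bp away in untreated epithelium, 386 bp at day 1, 548 bp at day 7 and 503 bp at day 28. For its paralogue miR-10b-5p the distances were 1276, 1249, 9789 and 9935 bp in the same lists, so peaks near miR-10a were closer in the later lists and those near miR-10b farther at days 7 and 28. For miR-196b-5p the nearest untreated peak was 86 bp away, and the nearest later peaks were 2470, 2470 and 3783 bp away at days 1, 7 and 28. The miR-615-3p sequence lay inside a peak in all 4 lists.

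Hox regions made up 0.128% of the untreated list (95% interval 0.110 to 0.148%), 0.151% of the day 1 list (0.132 to 0.171%), 0.156% of the day 7 list (0.136 to 0.177%) and 0.121% of the day 28 list (0.103 to 0.141%). In untreated epithelium 38 of the 39 genes had at least 1 region, and 39, 37 and 33 genes did at days 1, 7 and 28. Hoxc11 had none in untreated epithelium, Hoxb13 and Hoxd4 had none at day 7, and Hoxa6, Hoxa11, Hoxb13, Hoxd4, Hoxd11 and Hoxd12 had none at day 28. Most Hox regions lay within the cluster spans rather than beside them: 159 of 180, 217 of 248, 195 of 226 and 138 of 157 in the 4 lists by time. The whole lists covered 70.3 Mb in untreated epithelium, 97.3 Mb at day 1, 76.7 Mb at day 7 and 70.9 Mb at day 28.

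Hoxa and Hoxb held most of the Hox regions in each list, and the 4 clusters differed in how they changed with time. Hoxb had 65 regions in the untreated list, 77 at day 1, 82 at day 7 and 70 at day 28, so it was above its untreated number in all 3 later lists. At day 28 this depended on how peaks were split. With regions merged over the 4 lists Hoxb gained 6 and lost 14 at day 28, so it then had fewer than in untreated epithelium. Hoxa had 69, 76, 72 and 50 regions in the same lists, and was below its untreated number at day 28. Hoxc had 24, 55, 40 and 27 regions. Hoxd had 22, 40 and 32 regions in the first 3 lists and 10 at day 28, the fewest of any cluster and list.

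The covered length showed the same order of days in each cluster, with day 1 the highest, day 7 next, and untreated and day 28 lowest. Hoxb regions covered 23.1 kb in the untreated list, 58.9 kb at day 1, 47.2 kb at day 7 and 27.0 kb at day 28, and the share of the Hoxb stretch covered was 9.78% untreated, 24.9% at day 1 and 11.5% at day 28. Hoxa regions covered 25.5, 48.3, 35.6 and 20.1 kb. Hoxc regions covered 8.10, 28.2, 19.2 and 7.58 kb, and Hoxd regions covered 8.20, 16.5, 11.5 and 4.31 kb. Of the clusters, only Hoxb covered more at day 28 than in untreated epithelium. Hox regions were also wider at days 1 and 7, with mean widths of 361, 613, 502 and 376 bp in the 4 lists by time, and the widest measured 3510 bp, over Hoxa5 at day 1.

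**Figure D1:**
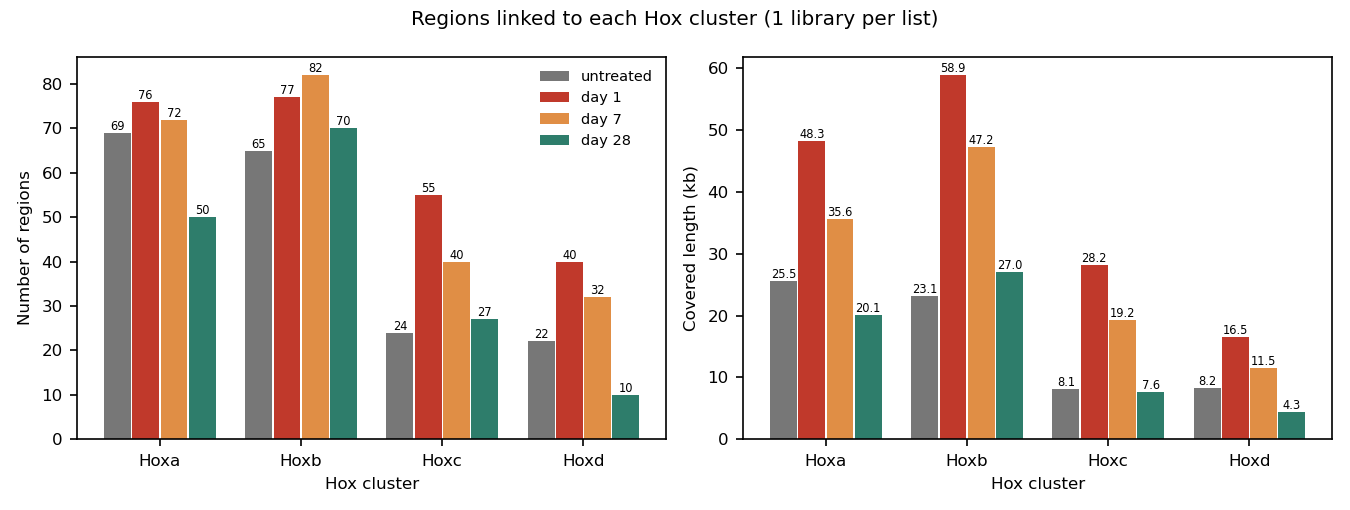
Number of accessible regions (left) and their covered length in kb (right) for each Hox cluster in the untreated, day 1, day 7 and day 28 lists; each bar is 1 library, with no error bar. Day 1 has the greatest covered length in every cluster, and Hoxd has 10 regions at day 28, against 22 in untreated epithelium.

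A later region was counted as gained where no untreated peak overlapped it by 1 bp or more, and an untreated region as lost where no peak of the later list did. At day 1, 131 of 248 Hox regions were gained, 52.8% (46.4 to 59.2%), against 52.4% of all day 1 regions. Only 24 of 180 untreated Hox regions were lost at day 1, 13.3% (8.73 to 19.2%), against 37.4% of all untreated regions. The share gained was thus near that of the whole list, and the share lost was below it.

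At day 7, 106 of 226 Hox regions were gained, 46.9% (40.3 to 53.6%), against 36.0% of all day 7 regions. This number depended on how peaks were split: with regions merged over the 4 lists 63 were gained at day 7, with shares by pattern given below. At the same time 34 of 180 untreated Hox regions were lost, 18.9% (13.5 to 25.4%), against 32.0% of all. At day 28, 39 of 157 Hox regions were gained, 24.8% (18.3 to 32.4%), against 23.7% of all day 28 regions. With regions merged over the 4 lists 12 were gained at day 28. By then 60 of 180 untreated Hox regions were lost, 33.3% (26.5 to 40.7%), against 27.1% of all.

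The clusters split within these totals. In Hoxb 37 of 77 regions were gained at day 1, 41 of 82 at day 7 and 24 of 70 at day 28, which is 48.1, 50.0 and 34.3% (23.3 to 46.6% at day 28, which includes the 23.7% of all regions). With regions merged over the 4 lists Hoxb gained 20 at day 7 and 6 at day 28, so these shares depended on how peaks were split. Hoxb lost 10, 12 and 16 of its 65 untreated regions at the 3 days (15.4, 18.5 and 24.6%), against 37.4, 32.0 and 27.1% of all untreated regions. Hoxc had the highest share gained at day 1, 37 of 55 or 67.3%, with an interval (53.3 to 79.3%) above the 52.4% of all regions. It lost 1 of its 24 untreated regions. Counting only gained regions with no untreated peak within 1 kb, Hoxc had 20 at day 1, or 36.4%, near the 36.6% of all day 1 regions. Hoxd gained 23 of 40 regions at day 1 and 13 of 32 at day 7 (57.5 and 40.6%, against 52.4 and 36.0% of all). At day 28 none of its 10 regions was gained, which allows a share of up to 30.0%, and 13 of 22 untreated Hoxd regions were lost, 59.1%, with an interval (36.4 to 79.3%) above the 27.1% of all untreated regions. Hoxa gained 34 of 76, 29 of 72 and 8 of 50 regions, which is 44.7, 40.3 and 16.0%, against 52.4, 36.0 and 23.7% of all. It lost 11, 17 and 25 of 69, which is 15.9, 24.6 and 36.2%, against 37.4, 32.0 and 27.1% of all untreated regions.

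**Figure D2:**
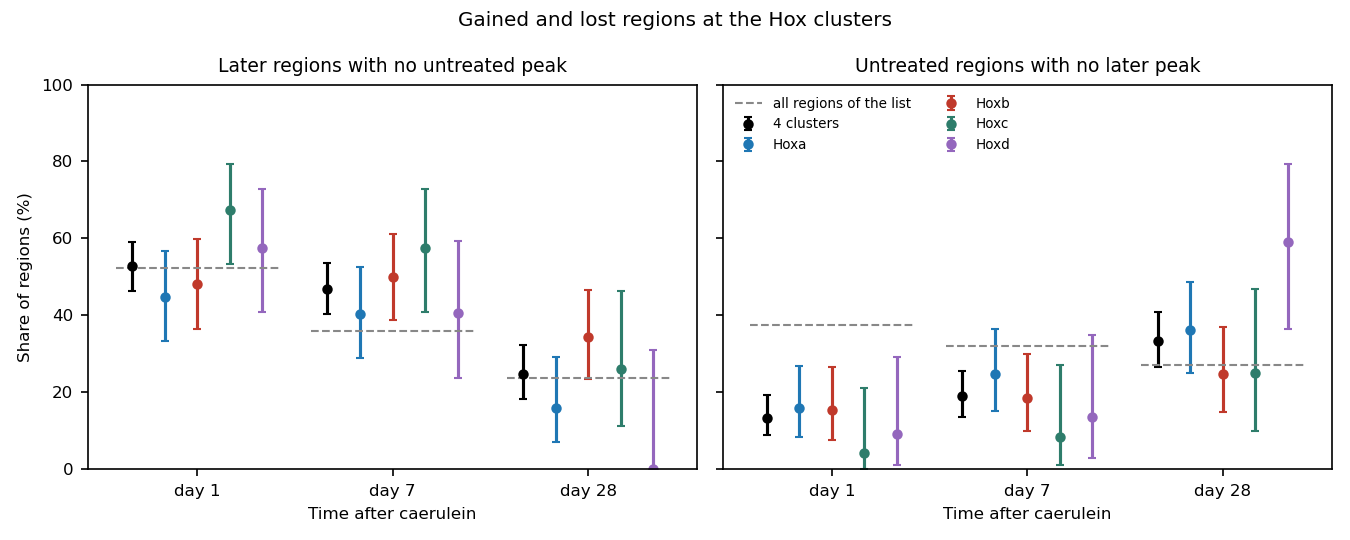
Share (%) of later regions with no untreated peak (left) and of untreated regions with no later peak (right) for the 4 clusters together and each cluster at days 1, 7 and 28; bars are exact 95% binomial intervals and dashed lines the share over all regions of the list. The share lost lies below the line at days 1 and 7 for the 4 clusters together, and Hoxd lies above it at day 28 with 59.1%.

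Genes that mark other cells also differed in number of regions between the lists, and their values are given for the list of each cell type. The 12 fibroblast and stellate genes had 129, 242, 197 and 154 regions in the lists by time, and 11, 12, 12 and 12 of the 12 had a region. Of these regions 161, 103 and 52 were gained at the 3 later days, 66.5, 52.3 and 33.8%, against 52.4, 36.0 and 23.7% of all regions. They lost 7, 10 and 22 of the 129 untreated regions, 5.43, 7.75 and 17.1%, against 37.4, 32.0 and 27.1% of all. At day 1, 9 of the 12 genes had more regions than in untreated epithelium, 1 had the same number and 2 had fewer. Lum was at 0 in untreated epithelium, and Col1a2, Prrx1 and Dcn had 35, 30 and 23 regions at day 1, against 14, 10 and 4 in untreated epithelium. Col1a1 had 23 in both lists, Pdgfrb 19 at day 1 against 21 untreated, and Twist1 5 against 6. Hox genes are known to be active in such mesenchymal cells. The purified cells are a bulk sample, in which more cells of a type and more open chromatin per cell cannot be told apart. The part of fibroblast chromatin in the Hox results was not tested.

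Acinar and ductal genes had their lowest number of regions at day 1, when Hox and fibroblast genes had their highest. The 10 acinar genes, which mark the labelled epithelium, had 166, 58, 118 and 176 regions, and the 10 ductal genes 121, 87, 119 and 112. Every one of both lists had a region in untreated epithelium, and Cel had none at day 1. The 10 endothelial genes had 144, 126, 144 and 95 regions, the 10 leukocyte genes 22, 34, 24 and 18, which like the Hox regions was highest at day 1 and below untreated at day 28, and the 10 islet genes 43, 60, 55 and 55. Adgre1 was at 0 in all 4 lists, and Cd3e and Lyz2 were at 0 in untreated epithelium, as was Ins1. The part of these cell types in the Hox results was not tested.

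The gained regions were mostly weak, narrow and close to regions that were already open. Each region carries a fold enrichment at its summit over the peak caller's background, which is the authors' own value. Its level differed between lists even in shared regions, as given below. Where the fold of a region is printed for several lists, a higher value is therefore not read as more open chromatin. The median fold of gained Hox regions was 3.94, 4.57 and 3.97 at days 1, 7 and 28, against 10.7, 10.2 and 5.96 for the Hox regions that overlapped an untreated peak in the same lists. Their median widths were 249, 213 and 203 bp, against 680, 515 and 337 bp. With no untreated peak within 1 kb there were 56 gained Hox regions at day 1, 39 at day 7 and 7 at day 28, which is 22.6, 17.3 and 4.46% of the Hox regions, against 36.6, 23.3 and 11.7% of all regions of those lists. Of these, 11, 14 and 2 were in Hoxb. Lost regions with no later peak within 1 kb numbered 7, 18 and 33 of the 180 untreated Hox regions at the 3 days, against 25.5, 18.2 and 15.5% of all untreated regions.

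The lists differed in how weak a region they hold, and the count of gained regions moved with it. The lowest fold was 2.47 in the untreated list, 2.36 at day 1, 2.95 at day 7 and 2.84 at day 28. In regions present in all 4 lists the median of fold minus 1 was 7.40, 16.6, 15.1 and 11.5, and the weakest region of each list stood at 0.199, 0.0819, 0.129 and 0.160 of that median. When regions of all 4 lists had to reach the same relative enrichment, 157 Hox regions were left at day 1, of which 53 or 33.8% were gained, and 36 of 180 untreated regions were lost, against 42.1% gained and 45.0% lost over all regions. Hoxb then gained 18 and lost 12 regions at day 1. Hoxc gained 20 of 36, 55.6%, down from the 67.3% without the floor, and no interval was computed for it. With this floor 85 of 201 Hox regions were gained at day 7 and 37 of 180 lost, 42.3 and 20.6%, against 33.2 and 33.9% of all. At day 28, 37 of 155 were gained and 60 of 180 lost, 23.9 and 33.3%, against 23.3 and 27.3% of all.

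Untreated Hox regions that were lost were the weaker ones. The median untreated fold of those lost was 3.62 at day 1, 3.62 at day 7 and 3.46 at day 28, against 4.61, 4.70 and 5.27 for those kept. All untreated regions were placed in 4 classes of like size by fold. None of the 17 Hox regions in the highest class, with fold above 9.06, was lost at any day, which allows a share of up to 17.6%, against 13.96, 2.92 and 0.305% of all untreated regions of that class at the 3 days. In the lowest class, with fold up to 3.62, 13 of 54 were lost at day 1, 18 at day 7 and 36 at day 28, which is 24.1, 33.3 and 66.7%, against 56.2, 58.7 and 58.9% of all untreated regions in that class.

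Followed over all 4 lists, 87 of the 269 merged Hox regions were present throughout, 32.3%, against 26.7% of all merged regions. Regions seen at day 1 alone came next, with 71 or 26.4%, against 23.0% of all. Another 41 (15.2%, against 9.31%) were present at days 1 and 7 alone. Regions present at days 1, 7 and 28 but not in untreated epithelium numbered 11 or 4.09%, against 3.83%, of which 6 were in Hoxb, 3 in Hoxc, 2 in Hoxa and none in Hoxd. There were 20 regions in the untreated list alone (7.43%, against 10.5%), of which 11 were in Hoxa and 8 in Hoxb. The untreated, day 1 and day 7 lists, and not day 28, shared 12 regions (4.46%, against 2.30%), of which 5 were in Hoxd. The remaining patterns were small: 11 at day 7 alone (4.09%, against 4.49%), 9 in untreated epithelium and at day 1 (3.35%, against 1.26%), 4 in untreated epithelium and at day 7 (1.49%, against 0.842%) and 2 absent from day 7 alone (0.743%, against 0.758%).

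A pattern common elsewhere was not seen at the Hox clusters. None of the 269 merged Hox regions was present in untreated epithelium and at day 28 but absent at day 1, which allows a share of up to 1.12%, against 9.96% of all merged regions. This is the sum of those absent from days 1 and 7 (5.19% of all) and those absent from day 1 alone (4.77%). Nor was any Hox region present at days 7 and 28 alone or at days 1 and 28 alone, against 1.11 and 0.934% of all. Presence in untreated epithelium and at day 28 with absence at day 1 was found in 83 of 183 merged regions of 10 acinar genes and in 4 of 254 of 12 fibroblast genes. It was found in 35 of 147 of ductal, 18 of 221 of endothelial, 3 of 46 of leukocyte and 2 of 68 of islet genes. For the genes beside the clusters it was 6 of 172, so a low number was not particular to fibroblast genes. Hox regions present at day 28 alone numbered 1, in Hoxc, against 5.02% of all merged regions.

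Along the Hoxb cluster, more regions stood at the anterior genes and fewer at the posterior genes in the later lists. The 4 genes Hoxb1 to Hoxb4 together had 32 regions in the untreated list, 49 at day 1, 55 at day 7 and 50 at day 28, with 24, 30 and 21 gained and 1, 2 and 3 lost at the 3 days. The 4 genes Hoxb5 to Hoxb8 had 17, 18, 20 and 15 regions. Hoxb9 and Hoxb13 together had 16, 10, 7 and 5 regions, with 9, 10 and 11 of the 16 untreated ones lost. Over all regions of the lists 52.4, 36.0 and 23.7% were gained at the 3 days. Of all untreated regions 37.4, 32.0 and 27.1% were lost. These Hoxb counts are of peaks before merging, and the day 28 gains depended on how peaks were split. With regions merged over the 4 lists the whole Hoxb cluster gained 6 at day 28, against 24 before merging. The higher number at the anterior genes at day 28 is therefore not a count of newly open sites.

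**Figure D3:**
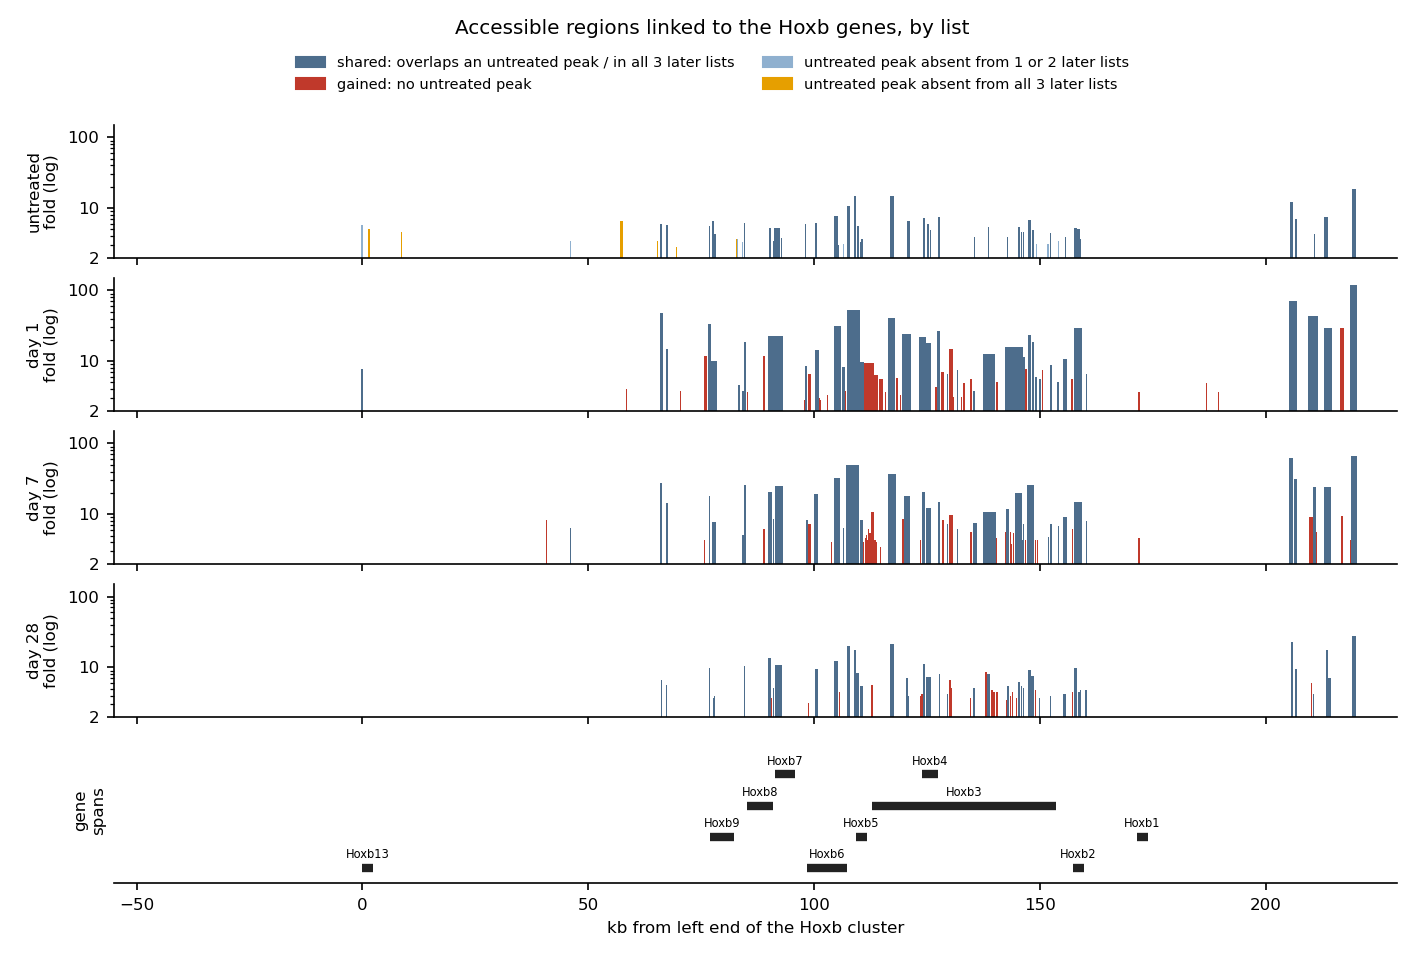
Hoxb regions of each list along the cluster, in kb from the left end of the cluster, at Hoxb13; bar width is the region's width and height its fold enrichment on a log axis, which is read within a list. Blue regions are shared between untreated and later lists, red ones gained, and orange ones absent from all 3 later lists; the strongest region of each list stands at the far right, beyond Hoxb1.

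Hoxb3 had the most gained regions of any Hoxb gene at each day. It had 18 regions in the untreated list, 33 at day 1, 39 at day 7 and 34 at day 28, of which 17, 24 and 18 were gained at the 3 later days. These are peaks before merging, and over all regions of the lists 52.4, 36.0 and 23.7% were gained. Hoxb3, which takes part in hindbrain and neck patterning, has a long annotated span that reaches past Hoxb4 (chr11:96307101-96347930), and a summit inside more than 1 span was given to the shorter gene. Its strongest region common to the 4 lists lay at chr11:96310698-96312361, with fold 14.7, 40.3, 37.6 and 21.6 in the lists by time. A region at chr11:96324126-96325114, inside Hoxb3, was absent from untreated epithelium and had fold 15.0 at day 1, 9.67 at day 7 and 6.53 at day 28. Among Hoxb regions gained at day 28 the strongest, at chr11:96332047-96332514 with fold 8.52, was also in Hoxb3. This peak was part of a merged region, chr11:96331614-96334513, that was present in all 4 lists, with fold 5.44 in untreated epithelium. At day 28 that region was split into 5 peaks, so the gained peak was not a newly open site.

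Hoxb4 and miR-10a, whose sequences are shown above, lie within the long Hoxb3 span. Hoxb4, known for its effect on the growth of blood stem cells, had a peak over its start window with fold 22.1 at day 1, 20.4 at day 7 and 4.26 at day 28. In untreated epithelium the nearest peak lay 217 bp away. All these peaks belonged to 1 merged region, chr11:96317594-96318993, present in all 4 lists with fold 7.25, 22.1, 20.4 and 11.1 by time. At day 28 this region was split into 3 peaks, and the one over the window was not the strongest. Hoxb4 itself had 3, 3, 2 and 3 regions in the 4 lists.

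At Hoxb1, the most anterior gene, the strong regions lay far outside the gene. The region with the highest fold of the Hoxb cluster in every list was at chr11:96413037-96414428, 45.5 kb beyond Hoxb1 and near the midpoint to Skap1. Its fold was 18.6 in the untreated list, 118 at day 1, 65.5 at day 7 and 27.5 at day 28. By fold its rank in the whole list was 17689, 1115, 6392 and 17349. A second region of this group, at chr11:96399469-96401294, had fold 12.4, 71.7, 63.1 and 23.0. Between them a region at chr11:96410832-96411740 was present at day 1 with fold 29.3 and at day 7 with fold 9.40, and was in neither the untreated nor the day 28 list. The start window of Hoxb1 was covered in no list, and the nearest peak lay 10929, 261, 238 and 10869 bp away in the lists by time.

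Skap1 itself, the neighbour on that side, had 10, 28, 27 and 13 regions, with 21, 19 and 4 gained at the 3 later days. Ttll6, the neighbour beside Hoxb13, had 19, 4, 6 and 6 regions, with 15, 14 and 15 lost. Evx1, which lies beside Hoxa13, had 2, 11, 7 and 2. The 10 genes beside the 4 clusters together had 95, 123, 105 and 68 regions. Of these 72, 47 and 13 were gained (58.5, 44.8 and 19.1%), against 52.4, 36.0 and 23.7% of all regions. They lost 39, 35 and 39 (41.1, 36.8 and 41.1%), against 37.4, 32.0 and 27.1% of all untreated regions.

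Hoxb13, known for its place in prostate and hindgut development, had 4 regions in untreated epithelium, 1 at day 1 and none at days 7 and 28. The untreated region inside the gene, at chr11:96195632-96195899 with fold 5.11, had no overlapping peak at any later day. Hoxb9 had 12, 9, 7 and 5 regions, and the strongest untreated Hoxb region that was lost, at chr11:96251411-96251901 with fold 6.59, lay 19.8 kb from it in the wide gap towards Hoxb13. Not every region of this end was lost: a day 1 peak beside Hoxb9 at chr11:96260193-96260957 had fold 48.5 and overlapped an untreated peak.

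**Figure D4:**
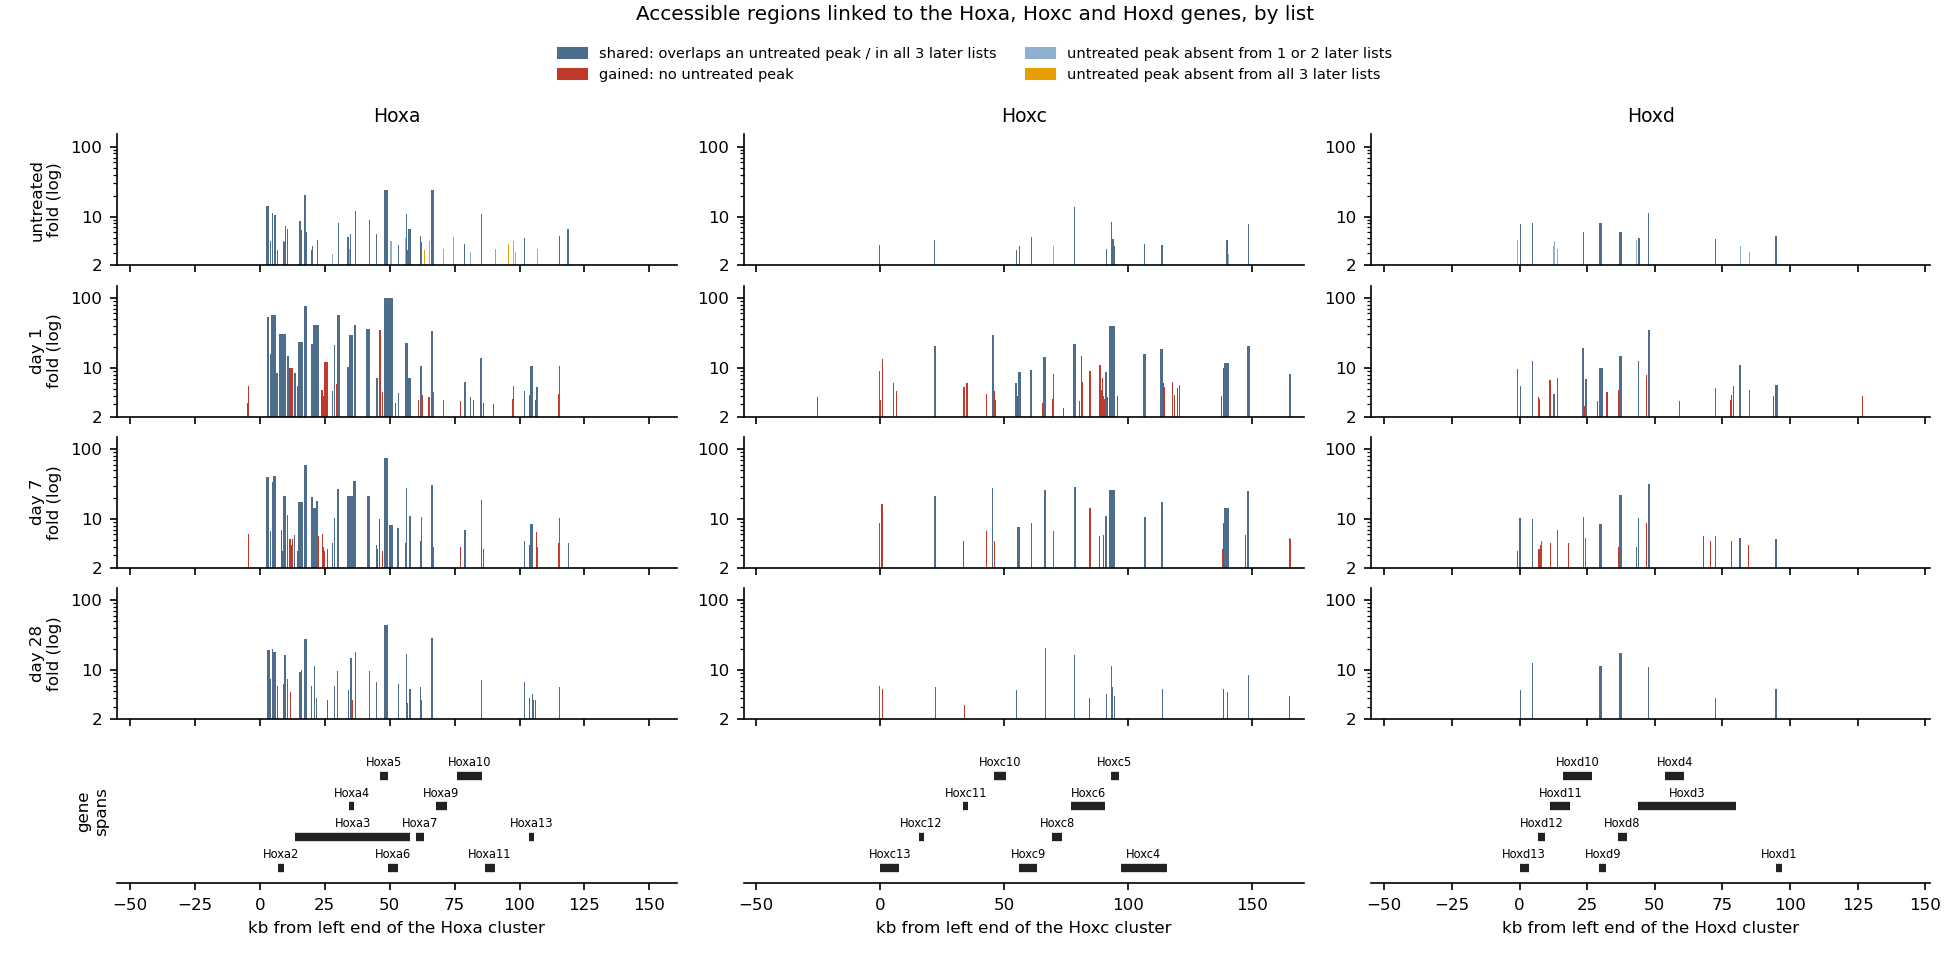
Hoxa, Hoxc and Hoxd regions of each list along each cluster, in kb from the left end of each cluster; bar width is the region's width and height its fold enrichment on a log axis, which is read within a list. Hoxc has 37 gained regions at day 1 (red), and Hoxd has 10 regions at day 28, none of them gained.

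In Hoxa the strongest regions were present throughout. The region over Hoxa5, a gene of airway and axial development, merged to chr6:52203033-52206716 and had fold 23.7, 99.4, 75.5 and 43.4 in the lists by time, the highest Hoxa value at days 1, 7 and 28. At day 7 its summit was given to Hoxa3, whose span also holds it. In untreated epithelium the highest fold was 24.1, at chr6:52221206-52222549 beside Hoxa9. Among Hox regions gained at day 1 the highest fold was 34.7, at chr6:52201210-52202107, and a gained peak there had fold 9.94 at day 7. It was in neither the untreated nor the day 28 list.

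The posterior Hoxa genes lost regions. Hoxa10 and Hoxa11, known for patterning of limb and uterus, had 8 and 4 regions in untreated epithelium, 10 and 4 at day 1, 5 and 1 at day 7 and 2 and 0 at day 28. At day 28 this left 6 of 8 and 4 of 4 untreated regions lost, against 27.1% of all untreated regions. The strongest lost Hoxa region at each day, at chr6:52229584-52230043 with untreated fold 5.11, ended 86 bp from the miR-196b sequence. Start windows of Hoxa7, Hoxa10 and Hoxa11 were covered in untreated epithelium alone, with untreated fold between 3.13 and 3.79. Later peaks were often close. At the Hoxa10 window chr6:52240805-52241104 they ended 8, 28 and 62 bp away at days 1, 7 and 28, in a region present in all 4 lists. At the other Hoxa10 window they lay 283, 268 and 807 bp away. The distances were 336, 730 and 832 bp at Hoxa7, and 342, 1389 and 5018 bp at Hoxa11. Hoxa13, which acts in limb ends and the genital tract, kept its start window covered in all 4 lists and had 11, 13, 13 and 9 regions.

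In Hoxc the gained regions lay at both ends of the cluster and between them. Hoxc6, a gene of thoracic patterning, had 3, 13, 9 and 3 regions in the lists by time, with 11, 7 and 1 gained at the 3 later days. Hoxc4, at the anterior end, had 8, 13, 12 and 11 regions, with 8, 7 and 4 gained. Hoxc13, at the posterior end, had 1, 6, 4 and 2 regions, with 5, 3 and 1 gained. Over all regions of the lists 52.4, 36.0 and 23.7% were gained at the 3 days, and the numbers per gene are small. The strongest gained Hoxc region at day 1, at chr15:103002065-103002547 inside Hoxc6, had fold 14.8. A region inside Hoxc13, at chr15:102921459-102922356, was absent from untreated epithelium and had fold 13.4, 16.1 and 5.39 at days 1, 7 and 28. Hoxc11 had no untreated region and had 2, 2 and 1 at the 3 later days. The region over Hoxc5 and miR-615, at chr15:103013255-103015845, was present throughout, with fold 8.40, 39.2, 26.1 and 11.4.

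In Hoxd the gene with the most regions was Hoxd3, with 8, 14, 13 and 3 regions. Its region at chr2:74715713-74716349 held the highest Hoxd fold in the first 3 lists, 11.4, 35.0 and 31.2, and had fold 11.1 at day 28. At day 28 the highest Hoxd fold was 17.6, over Hoxd8 at chr2:74705143-74706008. Hoxd11, a gene of forearm and kidney development, had 4, 5, 4 and 0 regions, and its printed start window had fold 3.46, 7.09 and 6.98 in the first 3 lists and no peak within 8767 bp at day 28. Hoxd4 had 1, 1, 0 and 0 regions, and its untreated region at chr2:74727372-74727657, with fold 4.94, was the strongest Hoxd region lost at days 7 and 28. This region lay 1276 bp from miR-10b. At Hoxd13, the posterior end, 3, 4, 3 and 3 regions were found and 1 untreated region was lost, at day 28.

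**Figure D5:**
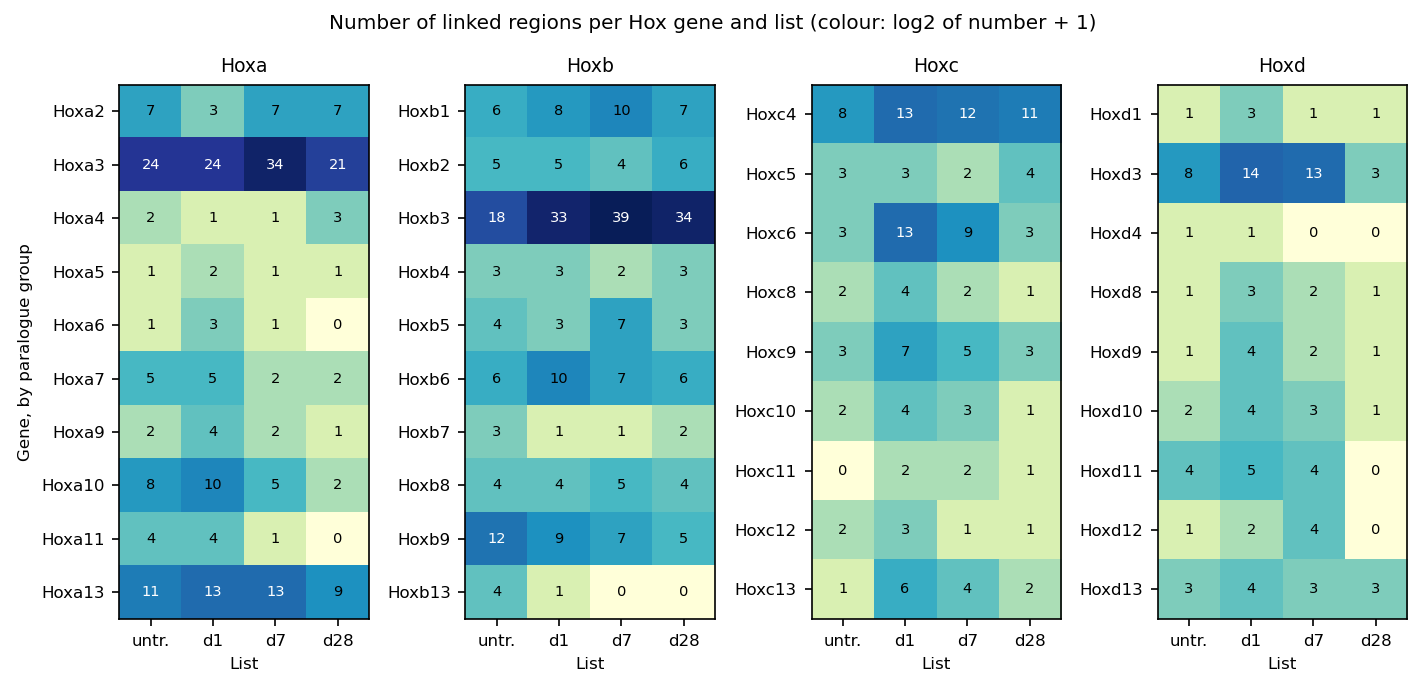
Number of regions assigned to the Hox genes shown (down, in order of paralogue group) in the untreated, day 1, day 7 and day 28 lists (across), with colour on a log2 scale of the number plus 1. Hoxb3 and Hoxa3 hold the most, and 6 genes have 0 at day 28.

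Over the 4 clusters the lost regions lay mostly at the posterior paralogue groups. The 12 genes of groups 1 to 4 had 87 regions in the untreated list, 115 at day 1, 128 at day 7 and 100 at day 28, with 3, 6 and 17 of the untreated 87 lost at the 3 later days. The 11 genes of groups 5 to 8 had 33, 51, 39 and 27 regions, with 2, 3 and 8 lost. The 16 genes of groups 9 to 13 had 60, 82, 59 and 30 regions, with 19, 25 and 35 lost, of 24, 34 and 60 lost Hox regions in all at the 3 days. In groups 9 to 13 Hoxa lost 8, 13 and 15 regions and Hoxb 9, 10 and 11. Hoxc lost 1, 2 and 2 there and Hoxd 1, 0 and 7. At day 28 Hoxc lost 2 of 8 regions in groups 1 to 4 and 2 of 8 in groups 9 to 13. Hoxd then lost 6 of 10 and 7 of 11. Over the whole list 37.4, 32.0 and 27.1% of untreated regions were lost at the 3 days. At day 28 groups 1 to 4 had 32 gained regions, of which 21 were in Hoxb, and groups 9 to 13 had 3. These are peaks before merging: with regions merged over the 4 lists all 4 clusters together gained 12 at day 28, of which 6 were in Hoxb.

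Peaks at the ends of the genes were common in all lists. Within 1 kb of either end of the gene there was a peak at 32 of the 39 Hox genes in the untreated list, 37 at day 1, 35 at day 7 and 28 at day 28, against 68.1, 68.5, 68.5 and 66.7% of all protein-coding genes. Of the 24 Hox start windows 16, 15, 14 and 12 were covered, against 50.7, 51.8, 51.6 and 50.1% of all windows in the table. Start windows of 11 genes were covered in all 4 lists: Hoxa2, Hoxa3, Hoxa5, Hoxa6, Hoxa13, Hoxc4, Hoxd1, Hoxd3, Hoxd9, Hoxd10 and Hoxd13. Those of Hoxa9, Hoxb1, Hoxb8, Hoxd4 and Hoxd12 were covered in none.

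The start windows were searched on both strands for 2 short motifs, whose matches may overlap. The AP-1 letters TGANTCA were found in 1 of 24 Hox windows, the other Hoxd11 window, against 7.85% of all windows. The HOX-PBX letters TGATNNAT were found in 4 of 24, at Hoxa2, Hoxb1, Hoxb8 and Hoxd11, against 8.79% of all windows.

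The genes of known Hox partners and regulators showed no single pattern. The 9 TALE cofactor genes had 221 regions in the untreated list, 307 at day 1, 236 at day 7 and 234 at day 28, with 162, 78 and 59 gained and 61, 59 and 40 lost at the 3 later days. The shares gained were 52.8, 33.1 and 25.2%, near the 52.4, 36.0 and 23.7% of all regions, and the shares lost 27.6, 26.7 and 18.1%, against 37.4, 32.0 and 27.1% of all. Pknox2 gained 52 regions at day 1 and Meis1 33, while Meis2 lost 19, and Pbx3 and Meis1 9 each. Among 9 known regulators of Hox genes there were 97, 104, 116 and 86 regions, with 49, 42 and 15 gained (47.1, 36.2 and 17.4%) and 31, 26 and 28 lost (32.0, 26.8 and 28.9%). Rarb, a retinoic acid receptor gene that is itself switched on by retinoic acid, had 17, 45, 44 and 20 regions, with 35, 30 and 7 gained. Cdx1 and Cdx2 each lost 6 untreated regions at day 1.

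The 16 Polycomb genes, which include the H3K27 demethylase genes Kdm6a and Kdm6b, had 136, 133, 134 and 116 regions. They gained 39, 39 and 22 (29.3, 29.1 and 18.97%), against 52.4, 36.0 and 23.7% of all regions. They lost 37, 36 and 30 (27.2, 26.5 and 22.1%), against 37.4, 32.0 and 27.1% of all untreated regions. Cbx7, a reader of the Polycomb mark, lost 14 of its 24 untreated regions at day 1. The 3 ParaHox genes, relatives of the Hox genes outside the clusters, had 16, 22, 24 and 21 regions, with 11, 10 and 6 gained and 7, 4 and 2 lost. These are shares of 50.0, 41.7 and 28.6% gained and 43.8, 25.0 and 12.5% lost, on few regions. Pdx1, the pancreatic master regulator among them, had 11, 6, 11 and 15 regions and lost 7 at day 1, while Gsx2 had 3, 10, 7 and 2 and gained 7.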

How the data were processed

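The 4 ATAC-seq peak lists, of untreated mice and of mice at days 1, 7 and 28 after caerulein, were grouped by the sample labels. The tools were MACS2 2.1.0.20150731, Bowtie2 2.2.6, cutadapt, deepTools and SAMtools with the build GRCm38 (mm10), per the submitters' processing notes. The sources used here do not give their roles and options, read filters, any shift of reads for Tn5, or whether mice were pooled. Each deposited list gives, per peak, the authors' fold enrichment, −log10 p-value and −log10 q-value at the summit, the summit's offset and a score, which equals 10 times −log10 q in the deposited lists. Peaks were called separately in each list, so widths and the number of peaks a stretch is split into differ between lists.

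Peaks on the 19 autosomes and X were linked by summit to the nearest of 21627 RefSeq protein-coding gene spans within 50 kb, with a summit inside several spans given to the shortest gene. Lists were compared by overlap of at least 1 bp. Promoter windows and mature microRNAs came from RefSeq tables; Hoxa4, Hoxb2, Hoxb3, Hoxb5, Hoxb6, Hoxb7, Hoxb9, Hoxb13, Hoxc5, Hoxc6, Hoxc8, Hoxc9, Hoxc10, Hoxc11, Hoxc12 and Hoxc13 were among those with no window, so the 1 kb around gene ends was used for all 39. Regions named are, per cluster, those of highest fold in each list, among gained and lost regions of each day, and among merged regions in all 4 lists or in the 3 later ones. From each of the other gene lists, the genes with the most gained or most lost regions are named. The printed start windows, the marker genes given by name and the day 1 peak at Hoxb9 with an untreated partner were chosen after their values were seen. Some genes of these lists are not reported here by name. The Hox genes, gene lists and tests were chosen with earlier results of these data known. No p-value was computed, since each group has 1 library.

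Alternatives were an overlap of 50%, −log10 q of at least 5, a common enrichment floor, a 10 kb link, every gene kind competing for a summit, merged regions and a 1 kb gap. Interval code was checked on simulated data. Python 3.11.15, pandas 2.3.3, numpy 2.4.6, scipy 1.17.1 and matplotlib 3.10.9 were used.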

Additional observations from a re-analysis of the deposited data

How the results depend on the processing

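Gained and lost counts over the 4 clusters and in Hoxb at the 3 days make 12 results. All 12 stayed within 1.5 times under an overlap of 50%. With −log10 q of at least 5, 23 Hox regions were gained at day 28 and the other 11 results stayed within 1.5 times. With the common enrichment floor 53 were gained at day 1, 18 of them in Hoxb, since fewer day 1 regions qualify. With a 10 kb link Hoxb lost 6 at day 1. When every gene kind, long noncoding RNAs within the clusters included, competed for a summit, fewer regions were linked: 10, 17 and 29 were lost at days 1, 7 and 28 (3, 5 and 7 in Hoxb) and 68 gained at day 7. Over merged regions 63 were gained at day 7 and 12 at day 28, with 20 and 6 in Hoxb, since neighbouring peaks fuse. The 63 were 41 present at days 1 and 7 alone, 11 at day 7 alone and 11 in all 3 later lists. These are 15.2, 4.09 and 4.09% of merged Hox regions, against 9.31, 4.49 and 3.83% of all merged regions. The 12 were the same 11 of all 3 later lists and 1 at day 28 alone (0.372%, against 5.02%). An alternative chosen after seeing the data asked for no peak of the other list within 1 kb: 56, 39 and 7 were gained and 7, 18 and 33 lost at the 3 days, with 11, 14 and 2 gained in Hoxb and 4 lost in Hoxb at day 1.

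No paired analysis was possible because each group has 1 library, which also left no library to omit. Peak lists without read counts limit every result: absence of a peak is not absence of accessibility, and day 1 regions are wider, so their overlap with other lists is easier. Counts per gene depend on the rule for overlapping spans, chiefly at Hoxa3 and Hoxb3.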
